A study of Mus musculus with 12 samples.

Results

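The response of J1 cells, a mouse embryonic stem cell line, to knockdown of Ino80 was compared between day 2 and day 4. The quantity studied was an interaction: the log2 difference between shIno80 and shNT at day 4 minus the same difference at day 2. Above 0, the ratio of shIno80 to shNT was higher at day 4 than at day 2. The comparison rested on 8 of the 12 one-colour Agilent arrays of the series, 2 in each of 4 groups, and on 19183 genes. A gene entered when 1 of its probes rose above background on the 2 arrays of some group, it was represented by its brightest probe, and none was picked by its interaction. The 4 groups were J1 cells given a lentiviral hairpin RNA that is non-targeting (shNT), taken at day 2 or day 4, and J1 cells given a lentiviral hairpin RNA against Ino80 (shIno80), taken at day 2 or day 4. The series design gives these days as 48 and 96 hours after infection. All groups carried a lentiviral hairpin, so uninfected cells were not part of the comparison, and the labels describe 1 Ino80 hairpin with no rescue.

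INO80 is the ATPase of a multi-subunit complex that slides nucleosomes and acts at promoters, replication forks and DNA breaks. Embryonic stem cells keep a self-renewing state through a set of transcription factors that includes Pou5f1, Sox2, Nanog, Klf4 and Esrrb. When that set is lost, the same cells can turn on genes of the trophectoderm, endoderm or other lineages. A response that is measured at several times after a knockdown can appear late, deepen, turn round or fade, and each of these is a change over time within the knockdown response.

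Values are log2 of the processed array signal minus the 75th percentile of that array, and in pairs set side by side with "compared with" the shNT arrays come first. The 75th percentile was between 1162 and 1429 intensity units on the 8 arrays. The share of probes well above background was 63.65 to 69.18%, and 0 or 1 probe was saturated on an array. Arrays of one group correlated at r = 0.9905 to 0.9941, and the highest r between arrays of different groups was 0.9869. For 4 of the 8 arrays (6 of 12 in the series), the value table and the scanner files of the deposit disagree on the group. Groups here are those of the value table. This choice was made after the array correlations and the Ino80 signal had been seen, so the fall of Ino80 is not independent evidence of knockdown. Each day was hybridised on a slide of its own, so slide and day cannot be told apart within shNT or within shIno80. A shift that a slide gives to all of its arrays cancels in the interaction. A shift confined to some positions of 1 slide cannot be told apart from the interaction, since the positions on a slide go with the hairpin.

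Ino80 itself was already lower in shIno80 at day 2, and its response did not pass the test for a change by day 4. The shNT arrays read 2.72 and 2.67 at day 2 and 2.26 and 2.16 at day 4. The shIno80 arrays read 0.56 and 0.85 at day 2, then -0.29 and 0.12. The shIno80 arrays were the lower ones on both days with no overlap. The difference was -1.99 at day 2 and -2.30 at day 4 (3.96-fold and 4.91-fold lower). The interaction of -0.31 ± 0.23 (SE, n = 2 arrays per group) did not pass (limma adjusted p = 0.442), and the other probes of Ino80 gave -0.39 and -0.30. Of the 14 measured members of the INO80 complex list, 1 was lower (7.15% of all genes tested were) and 0 were higher. It was Actl6a, an actin-related subunit shared with other remodellers, with differences of -0.15 at day 2 and -0.76 at day 4. Its call was lost, and the list had no other, with median scaling, with quantile normalization, with the 8 arrays alone and when any single array but shNT day 2 replicate 2 was left out.

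More genes differed between shIno80 and shNT at day 4 than at day 2. The interaction passed for 2940 genes (15.3% of those tested; limma, Benjamini-Hochberg adjusted p under 0.05), of which 1568 were higher (8.17%) and 1372 lower (7.15%). Of these, 1084 were higher and 604 lower by at least 2-fold. The difference at day 2 passed for 2397 genes (12.5%; 6.29% higher and 6.21% lower) and the difference at day 4 for 8107 (42.3%; 20.9% higher and 21.3% lower). The SD of the difference over genes was 0.48 at day 2 and 0.92 at day 4. The 2 differences, which share no array, correlated over the 19183 genes at r = 0.526 (Spearman 0.556), a description in which genes are not independent replicates. The median interaction over all genes was -0.06.

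Most of the genes that passed had a response that appeared at day 4. This class, with day 4 passing and day 2 not, held 2122 genes (11.1% of those tested), with 1143 higher and 979 lower at day 4. With 2 arrays per group, not passing at day 2 does not show that there was no difference then. A response that deepened, passing on both days with one sign and larger at day 4, was found for 560 genes (2.92%), 281 of them higher and 279 lower in shIno80. A response that turned round, passing on both days with opposite signs, was found for 74 genes (0.386%), of which 45 were higher and 29 lower at day 4. A response that faded was found for 131 genes (0.683%), of which 59 had been higher and 72 lower at day 2. Of these, 117 no longer passed at day 4 and 14 were smaller with the same sign. A further 53 genes passed the interaction with neither day passing.

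Passing on a single day did not by itself show a change in response. Day 4 passed without day 2 for 6140 genes, and 2122 of those passed the interaction. Day 2 passed without day 4 for 430 genes, and 117 of those passed the interaction. For 1893 genes both days passed with the same sign. The count of genes that passed the interaction was sensitive to single arrays. It was 1474 without shIno80 day 4 replicate 2, 1616 without shNT day 4 replicate 1, 1774 without shNT day 4 replicate 2, 1845 without shIno80 day 2 replicate 1 and 1903 without shIno80 day 4 replicate 1. With another background correction (normexp) 23 genes passed, 18 of them higher, and with groups taken from the attachment of the scanner files 1 gene passed.

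**Figure D1:**
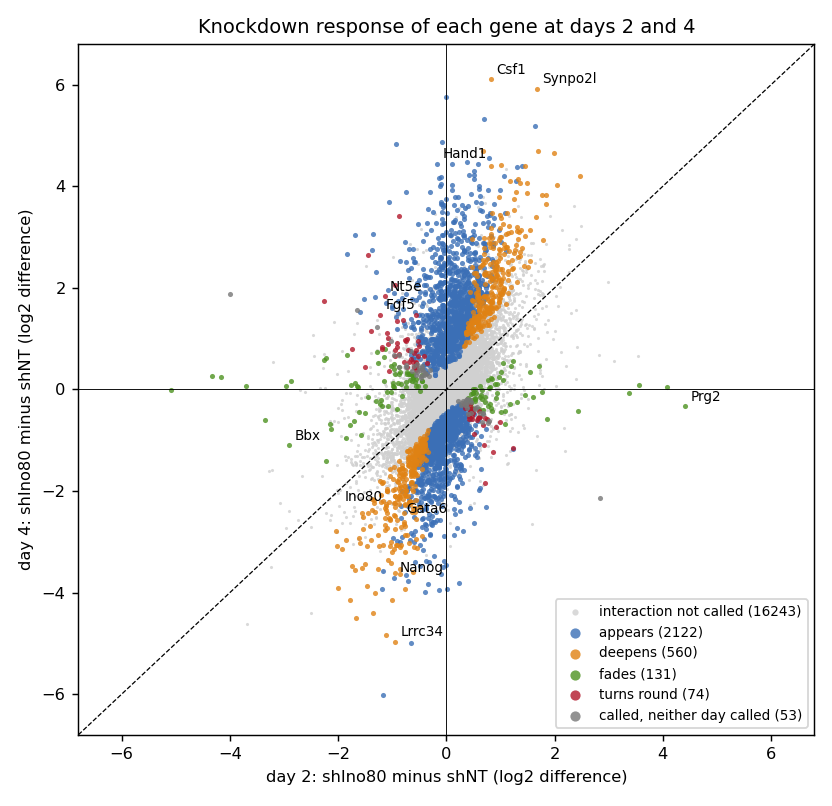
Each point is 1 of 19183 genes, with the log2 difference between shIno80 and shNT at day 2 on the x axis and at day 4 on the y axis, coloured by class; the dashed line marks equal differences. The 2122 genes whose response appears lie along the vertical axis, most of the 131 that fade lie near the horizontal axis, and Ino80 lies close to the dashed line.

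Genes of the trophectoderm, the outer layer of the blastocyst that forms the placenta, had the highest median interaction of the 31 lists in the values used. Of 19 measured members, 14 passed higher and 0 lower (8.17% and 7.15% of all genes tested did), and the median interaction of the list was 2.12. With only probes well above background on all 8 arrays, 12 of 15 members passed higher, with a median of 1.99. The list of the 2-cell-like state lay above the trophectoderm list with normexp (2.00 against 1.97). It did so too without shNT day 2 replicate 2 (2.46 against 2.05) and without shIno80 day 2 replicate 1 (2.47 against 2.05). These medians of the 2-cell-like list are over 7 distinct genes, with 1.81 in the values used. Hand1, a transcription factor of trophoblast giant cells, read -3.64 and -3.50 at day 2 and -3.33 and -3.19 at day 4 in shNT. In shIno80 it read -3.74 and -3.75 at day 2, then 1.23 and 1.13. The 2 shIno80 day 4 arrays stood alone and the other 6 lay together. The difference went from -0.18 to 4.44, an interaction of 4.62 ± 0.18 (SE, n = 2 per group, limma adjusted p = 3.92e-05), or a 24.6-fold change of the ratio.

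The keratins of simple epithelium moved with Hand1. Krt8 was at 1.03 and 1.37 (day 2) and 1.44 and 1.83 (day 4) with the non-targeting hairpin, and at 1.22 and 1.49 (day 2) and 5.35 and 5.48 (day 4) with the Ino80 hairpin. Its interaction was 3.63 ± 0.29. Krt18, the partner of Krt8, had a response that deepened, from 0.82 to 4.40. Krt7 went from 0.62 to 3.80 and Krt19 from -0.10 to 2.43. Krt8 and Krt18 kept their call in every alternative tried except the attachment of the scanner files, with interactions of 3.43 to 3.82 and 3.38 to 3.78.

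The transcription factors of the trophectoderm differed in how the 2 arms contributed. Gata3 went from 0.48 to 2.99, with the change in shIno80 cells (2.74 between days, against 0.22 in shNT). Eomes was at -2.07 and -2.30 in shNT at day 2 and -3.50 and -3.47 at day 4, and at -1.92 and -1.95 in shIno80 at day 2 and -1.68 and -1.47 at day 4. Its interaction of 1.66 ± 0.20 was thus mostly a lower level in the shNT arrays of day 4 (-1.30 between days). Tead4, a YAP partner that acts early in this lineage, did likewise, with -1.33 in shNT and 0.79 in shIno80. Gata2 turned round, from -0.91 to 0.83. Cdx2, a founding factor of the lineage, was higher at day 4 in both arms (1.92 in shNT and 4.52 in shIno80). Its interaction of 2.60 ± 0.72 passed at adjusted p = 0.0446, but it was well above background on 1 of 2 arrays in both day 2 groups. It lost its call when some single arrays were left out, with values from 1.69 to 3.51 over the alternatives. Plac1, a placental gene, was not well above background outside shIno80 at day 4, where it was at least 13-fold higher than in shNT. Such bounds set the bright group against the lowest signal well above background on each array.

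In whole cultures, more cells of a type and more RNA per cell cannot be told apart. The trophectoderm markers, 11 kept of 12, had a mean level of 0.96 to 1.01 in shIno80 at day 4, against -2.21 to -1.42 in the other groups. The embryonic stem cell markers, 7 on the array of 8, were all well above background in all groups. Their mean was 5.14 to 5.24 in shNT and 4.66 to 4.78 in shIno80 at day 2, and 4.92 to 5.05 against 3.35 to 3.61 at day 4. Fibroblast markers, which could come from feeder cells, had a mean of -3.43 to -3.19 in 3 groups and -1.90 to -1.88 in shIno80 at day 4, with Postn not well above background on any array. Blood cell markers, 3 kept of 5, had a mean of -3.76 to -3.42 in 3 groups and -3.22 to -3.20 in shIno80 at day 4. The part of cell composition in the interaction was not tested.

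The pluripotency list moved the other way. Of 25 measured members, 12 passed lower (48%, beside 7.15% of all genes tested) and 0 higher, with a median interaction of -0.77. Nanog was at 3.93 and 3.46 (day 2) and 3.31 and 3.17 (day 4) with the non-targeting hairpin, and at 3.05 and 2.41 (day 2) and -0.14 and -0.79 (day 4) with the Ino80 hairpin. Every shIno80 array was below every shNT array of its day, and the day 4 gap was the wider. The day 2 difference of -0.96 did not pass (adjusted p = 0.0733), the day 4 difference was -3.71, and the interaction was -2.74 ± 0.42 (adjusted p = 0.00489). Esrrb, a nuclear receptor of the naive state, went from -0.31 to -2.87 and Nr0b1, another nuclear receptor, from -0.48 to -3.07. Zfp42 (Rex1) went from -0.53 to -2.01.

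Other members were already lower at day 2 and deepened. Klf4 was at 6.10 and 6.15 (day 2) and 5.16 and 5.53 (day 4) with the non-targeting hairpin, and at 5.22 and 5.09 (day 2) and 2.34 and 2.08 (day 4) with the Ino80 hairpin. Its difference moved from -0.97 to -3.14, an interaction of -2.16 ± 0.23. Nr5a2, a nuclear receptor that binds the Pou5f1 promoter, went from -1.62 to -2.93, Tbx3 from -1.18 to -3.06 and Tfcp2l1 from -0.77 to -2.62. The other kept probe of Tbx3, well above background on 3 of 8 arrays, gave an interaction of 1.25 that did not pass. The factors at the centre of the network, Sox2 and Pou5f1, had smaller values. Sox2 went from -0.35 to -1.21, an interaction of -0.87 ± 0.16 (adjusted p = 0.00966). Pou5f1 had differences of -0.32 and -1.13, and its interaction of -0.81 ± 0.24 did not pass (adjusted p = 0.0577).

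**Figure D2:**
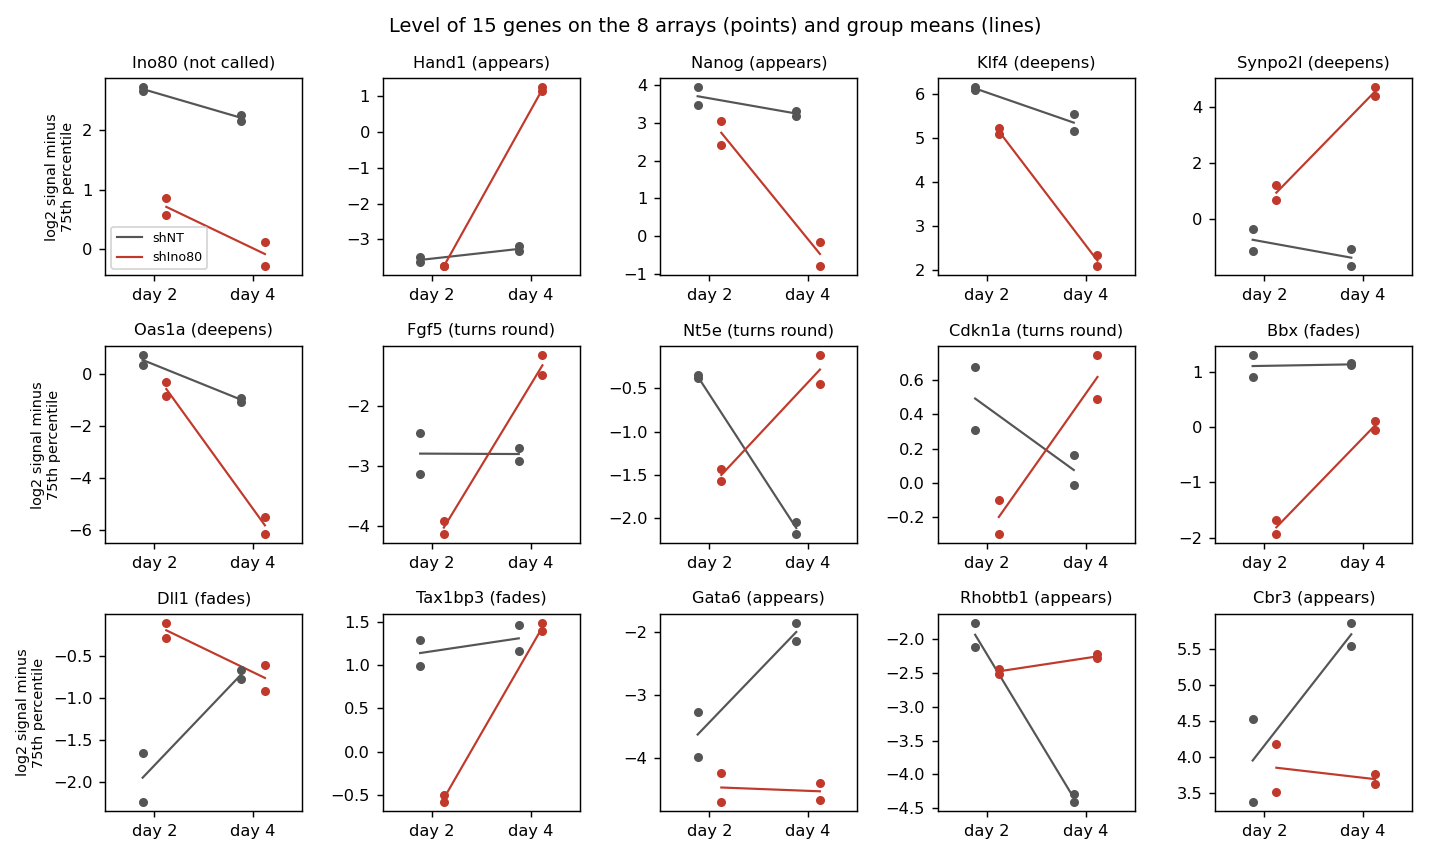
Level of 15 genes on the 8 arrays (points, log2 signal minus the array's 75th percentile) with group means joined by lines, shNT in grey and shIno80 in red; the class of each gene is in its panel title. The shIno80 line leaves the shNT line in the genes whose response appears, the lines cross in Fgf5, Nt5e and Cdkn1a, and the shNT line moves in Gata6, Rhobtb1 and Cbr3.

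The lists of the contractile actin cytoskeleton, of YAP and TGF-beta targets and of fibroblasts each had members that passed higher and none that passed lower, and the other members did not pass. The contractile list had 9 of 15 measured members higher (60%, beside 8.17% of all genes tested) and 0 lower (median interaction 1.01). The list of YAP and TGF-beta targets had 9 of 16 higher (56.2%) and 0 lower (1.27). The fibroblast list had 8 of 16 higher (50%) and 0 lower (1.54). A member could enter by clearing background in shIno80 at day 4 alone. With only probes well above background on all 8 arrays, the fibroblast list kept 10 members, with 5 higher and a median of 0.81. The YAP and TGF-beta list then had 8 of 15 higher (1.22), and the contractile list 9 of 15 (1.01). The fibroblast median was 0.39 in the deposited value table, whose signal is not background-subtracted, and 6 members passed there. Acta1, skeletal muscle actin, had the largest interaction of any named gene measured in all groups. It was at -3.48 and -4.74 compared with -5.01 and -4.68 on the day 2 arrays, then at -4.22 and -4.40 compared with -0.47 and -0.37 on the day 4 arrays. The groups overlapped at day 2 and were apart at day 4. Its interaction was 4.64 ± 0.50 (adjusted p = 0.00109).

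Synpo2l, an actin-associated protein of the muscle Z-disc, already differed at day 2. Its level was -1.13 and -0.33 (day 2) and -1.68 and -1.06 (day 4) with the non-targeting hairpin, and 0.68 and 1.21 (day 2) and 4.40 and 4.69 (day 4) with the Ino80 hairpin. The difference went from 1.68 to 5.92 (3.20-fold to 60.4-fold), an interaction of 4.24 ± 0.47. Cryab, a small heat shock protein abundant in muscle, had no called difference at day 2 (-0.09) and 3.64 at day 4. Its interaction of 3.73 ± 0.23 was made of 2.58 in shIno80 and -1.15 in shNT. Tagln, a calponin-family actin-binding protein, deepened from 1.01 to 3.38 by its reported probe, while its other probe gave an interaction of 0.98 that did not pass.

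Tgfbr2, the type II receptor of TGF-beta, was at -2.60 and -2.50 compared with -2.06 and -1.70 on the day 2 arrays, then at -3.24 and -3.26 compared with 1.36 and 1.50 on the day 4 arrays. Its response deepened from 0.67 to 4.68 (1.59-fold to 25.7-fold), an interaction of 4.01 ± 0.26. Its other kept probe, well above background on 2 of 8 arrays, gave 1.25, which did not pass. Thbs1, which encodes thrombospondin and is a TGF-beta target, went from 1.70 to 4.69. Ccn1, a secreted YAP target, went from 1.84 to 3.66. Lats2, a kinase that restrains YAP, went from 0.13 to 2.92. Of the fibroblast list, Col1a1, a chain of type I collagen, went from 0.18 to 2.41, and S100a4, a calcium-binding protein of mesenchyme, from 0.40 to 3.62. Dcn, which encodes decorin, was not well above background on any day 2 array, and at day 4 it was at -5.52 and -4.75 in shNT and -1.67 and -1.77 in shIno80.

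Other genes with high interactions were surface and transport proteins. Jaml, a junctional adhesion molecule, was at -4.89 and -4.88 (day 2) and -5.20 and -5.41 (day 4) with the non-targeting hairpin, and at -5.34 and -5.05 (day 2) and -1.53 and -1.32 (day 4) with the Ino80 hairpin, an interaction of 4.19 ± 0.35. Slco2a1, a prostaglandin transporter, went from 0.37 to 4.47 by its reported probe, while its other probe gave an interaction of 0.92. Several secreted factors and a lipid raft protein cleared background on both arrays of shIno80 day 4 and of no other group. Csf1, the growth factor of macrophages, was there at -0.02 and 0.09, and at -7.30 to -5.97 on the other arrays. It was at least 68.7-fold higher than in shNT at day 4. The chemokine Ccl20 was at least 19.3-fold, the cytokine Il24 at least 12.2-fold and the lipid raft protein Mal at least 12.5-fold higher than in shNT at day 4. The call of Ccl20 was lost when some single arrays were left out. Serpina3a, a protease inhibitor, had the largest fitted interaction of the named genes (5.87 ± 1.63), with 1 of 2 shIno80 arrays of day 4 at -4.04 and the other at -8.53. Neither day passed for it, and its call was lost when single arrays were left out.

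The lowest interactions belonged to a mixed set of genes. Lrrc34, a leucine-rich repeat protein of stem and germ cells, was at 2.92 and 3.47 compared with 1.97 and 2.50 on the day 2 arrays, then at 2.67 and 2.94 compared with -2.05 and -2.28 on the day 4 arrays. Its response deepened from -0.95 to -4.96 (1.94-fold to 31.2-fold lower), an interaction of -4.01 ± 0.33 (adjusted p = 0.000397). Myo1f, an unconventional myosin, went from -0.76 to -3.93, and Accsl, related to the plant enzyme family of ACC synthases, from -1.01 to -4.15. Lrrc2, another leucine-rich repeat protein, went from -0.61 to -3.59.

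Nsg2, a neuronal vesicle protein, had a response that appeared. It was at -1.58 and -1.06 (day 2) and -1.40 and -0.95 (day 4) with the non-targeting hairpin, and at -1.59 and -1.06 (day 2) and -4.24 and -5.04 (day 4) with the Ino80 hairpin. Its interaction was -3.45 ± 0.56. Klk1, a kallikrein protease, went from 0.30 to -2.78 by its reported probe, while its other probe gave -0.53 and did not pass. Among genes that left the measurable range, Hhip, a hedgehog-binding protein, was at -4.61 to -3.53 on 6 arrays and not well above background in shIno80 at day 4, where it was at least 4.69-fold lower than in shNT. Mcf2, a guanine nucleotide exchange factor, was at -1.60 to -0.60 on 6 arrays and at -4.88 and -5.98 in shIno80 at day 4, where 1 of 2 arrays was well above background.

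The genes that turned round were lower in shIno80 at day 2 and higher at day 4 in 45 of 74 cases. Fgf5, a growth factor and marker of the primed epiblast, was at -3.13 and -2.45 compared with -4.13 and -3.91 on the day 2 arrays, then at -2.69 and -2.91 compared with -1.50 and -1.16 on the day 4 arrays. The shIno80 arrays were the lower ones at day 2 and the higher ones at day 4, with no overlap on either day. The difference went from -1.23 to 1.47, an interaction of 2.70 ± 0.40 (adjusted p = 0.00412), and nearly all of it lay in the shIno80 arm (2.69 against -0.01).

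Nt5e, the surface enzyme that makes adenosine from AMP, turned round by opposite moves of both arms. It was at -0.35 and -0.38 (day 2) and -2.19 and -2.05 (day 4) with the non-targeting hairpin, and at -1.57 and -1.44 (day 2) and -0.12 and -0.45 (day 4) with the Ino80 hairpin. The change between days was 1.22 in shIno80 and -1.76 in shNT, an interaction of 2.98 ± 0.20. Dync1i1, an intermediate chain of dynein, went from -1.38 to 1.16. Mall, a raft protein related to Mal, and Ctla2a, a cysteine protease inhibitor, are in the same class by their fitted values. Neither of these was well above background in shIno80 at day 2, where Mall was at least 2.69-fold and Ctla2a at least 2.46-fold lower than in shNT. At day 4 Mall was higher in shIno80 by 2.64. Ctla2a was not well above background in shNT at day 4, where shIno80 was at least 2.32-fold higher, and its call was lost without shNT day 4 replicate 2 and without shIno80 day 4 replicate 2.

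Some p53 and stress genes crossed in the same direction. Cdkn1a, which encodes the CDK inhibitor p21, was at 0.67 and 0.31 compared with -0.10 and -0.30 on the day 2 arrays, then at 0.16 and -0.01 compared with 0.74 and 0.49 on the day 4 arrays. Its difference went from -0.69 to 0.54. Pmaip1 (Noxa), a pro-apoptotic p53 target, went from -0.52 to 0.96, and Asns, which makes asparagine and is induced by amino acid stress, from -0.41 to 0.66. Loxl1, a collagen cross-linking enzyme, went from -1.09 to 0.89. In the p53 list 3 of 18 members were higher (16.7%, beside 8.17% of all genes tested) and 0 lower. The third was Perp, which appeared, from 0.37 to 1.93, and lost its call when some single arrays were left out.

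In the other direction, Ucma, a cartilage matrix protein, was at -0.53 and -0.11 (day 2) and -1.03 and -0.93 (day 4) with the non-targeting hairpin, and at 0.37 and 0.43 (day 2) and -2.97 and -2.66 (day 4) with the Ino80 hairpin. The shIno80 arrays were above shNT at day 2 and below it at day 4. The difference went from 0.72 to -1.84, an interaction of -2.55 ± 0.25. Il12rb1, a cytokine receptor chain, went from 0.68 to -0.70 and E2f1, a transcription factor of S phase entry, from 0.50 to -0.46. Crispld1 went from 0.92 to -0.74, with a change of 1.81 in shNT and 0.15 in shIno80. It lost its call without shNT day 4 replicate 1 and without shIno80 day 4 replicate 2. Myb, a transcription factor of progenitor cells, went from 0.69 to -1.10, but its 4 probes gave interactions from -2.25 to -0.08. Tarm1, a myeloid cell receptor, was higher in shIno80 by 1.24 at day 2 and was not well above background in either group at day 4.

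Responses that faded ran in both directions. Bbx, an HMG-box transcription factor, was at 0.90 and 1.30 compared with -1.94 and -1.69 on the day 2 arrays, then at 1.11 and 1.15 compared with -0.06 and 0.12 on the day 4 arrays. The shIno80 arrays stayed below shNT on both days, and the gap narrowed from -2.91 to -1.10 (7.53-fold to 2.15-fold lower). The interaction was 1.81 ± 0.23, and the other probes gave 1.87 and 1.73. Tax1bp3, a PDZ domain protein, was at 0.99 and 1.28 (day 2) and 1.16 and 1.46 (day 4) with the non-targeting hairpin, and at -0.58 and -0.50 (day 2) and 1.39 and 1.49 (day 4) with the Ino80 hairpin. Its groups overlapped at day 4, and the difference went from -1.68 to 0.13. Rimbp2, a presynaptic scaffold, went from -1.27 to 0.52 and Lrrn4, a leucine-rich repeat membrane protein, from -1.14 to 0.79. The call of Lrrn4 was lost when some single arrays were left out.

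Dll1, a Notch ligand, was higher in shIno80 at day 2 and no longer differed by the test at day 4. It was at -2.24 and -1.66 compared with -0.28 and -0.11 on the day 2 arrays, then at -0.67 and -0.77 compared with -0.92 and -0.61 on the day 4 arrays. The difference went from 1.76 to -0.04, with a change of 1.23 in shNT and -0.57 in shIno80. Sla2, a Src-like adaptor, went from 1.60 to -0.16, Fbxo43, an inhibitor of the anaphase-promoting complex, from 1.08 to -0.69, and Tbc1d9, a Rab GTPase-activating protein, from 1.08 to -0.42. Tbc1d9 lost its call when some single arrays were left out and with the mean of its probes. Prg2, an eosinophil granule protein, and Reg3d, a secreted lectin, cleared background on both arrays of shIno80 day 2 and on no array of the other groups. There Prg2 was at least 5.10-fold and Reg3d at least 3.99-fold higher than in shNT.

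Interferon-induced genes, which defend against viruses and present antigen, passed in both directions, with a higher share near that of all genes. Of 30 measured members 7 were lower (23.3%, beside 7.15% of all genes tested) and 3 higher (10%, beside 8.17%). Of these 10, 9 deepened a difference already called at day 2. Only 15 of the 30 were well above background on both arrays in all groups, and of these 4 were lower and 2 higher. The median interaction was -0.10, beside -0.06 for all genes. Both counts moved with single arrays: the lower one was 3 without shNT day 4 replicate 1 and 4 without shIno80 day 2 replicate 1, shNT day 4 replicate 2 or shIno80 day 4 replicate 2. The higher one was 1 without any 1 of the last 3 of these. By the deposited table of values, 3 were lower and 5 higher, and with quantile normalization 4 were lower. The promoters of 4 members are shown because, among the members that passed, these had the largest interactions each way. They are the 250 bases before the annotated start, 5′ to 3′ on the strand of the gene, from RefSeq on GRCm38.p6. Capitals mark matches on either strand to GAAANNGAAA, the core of the interferon-stimulated response element, or to TTCNNNGAA, the pattern bound by STAT dimers. Oas1a lies at chr5:120907526-120907775 on the minus strand, Tgtp1 at chr11:48992247-48992496 on the minus strand, Gbp2 at chr3:142620413-142620662 on the plus strand and Tap1 at chr17:34187306-34187555 on the plus strand.
Oas1a: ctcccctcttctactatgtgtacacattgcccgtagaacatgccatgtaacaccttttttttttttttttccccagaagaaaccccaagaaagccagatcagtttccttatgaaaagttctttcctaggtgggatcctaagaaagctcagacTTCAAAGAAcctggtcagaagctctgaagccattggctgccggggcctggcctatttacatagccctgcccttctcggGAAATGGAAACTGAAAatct
Tgtp1: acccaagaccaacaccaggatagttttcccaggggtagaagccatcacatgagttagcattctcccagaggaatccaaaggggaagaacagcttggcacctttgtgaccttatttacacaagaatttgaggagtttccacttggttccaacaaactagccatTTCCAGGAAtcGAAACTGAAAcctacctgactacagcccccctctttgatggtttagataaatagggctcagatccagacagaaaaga
Gbp2: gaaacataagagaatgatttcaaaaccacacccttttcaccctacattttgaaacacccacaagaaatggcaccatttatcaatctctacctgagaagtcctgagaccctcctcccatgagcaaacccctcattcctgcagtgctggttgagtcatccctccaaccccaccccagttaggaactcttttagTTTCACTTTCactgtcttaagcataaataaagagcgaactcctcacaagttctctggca
Tap1: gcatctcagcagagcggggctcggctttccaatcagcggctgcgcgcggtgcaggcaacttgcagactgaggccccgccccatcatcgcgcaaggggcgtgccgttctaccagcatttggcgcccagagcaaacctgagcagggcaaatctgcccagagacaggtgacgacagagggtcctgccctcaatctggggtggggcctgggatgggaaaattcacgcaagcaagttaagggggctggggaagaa

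Of all 32851 promoter windows of this length, 2.98% held GAAANNGAAA and 7.02% held TTCNNNGAA. Of the 23 measured members of the list with a promoter entry, 12 held the first and 6 the second. Among members with a lower interaction, 3 of 6 held the first and 3 of 6 the second. Among those with a higher interaction, 1 of 3 held the first and 0 of 3 the second, and among those that did not pass, 8 of 14 and 3 of 14. In Oas1a 2 matches of the first pattern overlap next to the start. In Tgtp1 a match of each lies side by side. The Tap1 window, with no match, overlaps that of Psmb9 on the other strand, and these 2 genes of peptide processing both deepened upward.

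Oas1a, an oligoadenylate synthetase that senses double-stranded RNA, was at 0.71 and 0.34 (day 2) and -1.08 and -0.93 (day 4) with the non-targeting hairpin, and at -0.32 and -0.85 (day 2) and -5.49 and -6.17 (day 4) with the Ino80 hairpin. With 1 of 2 shIno80 arrays of day 4 well above background, the size of the day 4 difference is uncertain: the interaction was -3.71 ± 0.35 (adjusted p = 0.000676) in the values used and -1.29 with normexp. Tgtp1, an interferon-induced GTPase, had a day 2 difference of -1.36 by its reported probe and was at least 6.13-fold lower at day 4, where no shIno80 array was well above background. Its other probe, well above background on 7 of 8 arrays, had a day 4 difference of -0.37 and an interaction of -0.55 that did not pass, and the call of Tgtp1 was lost in the deposited value table. Oas1d had a day 2 difference of -1.26 and was at least 8.19-fold lower at day 4, with no shIno80 array well above background, and its call too was lost in that table. Ifitm1, a membrane protein that blocks virus entry, went from -1.14 to -2.33, and Ifitm3 from -0.52 to -1.29. Smaller falls passed for Oas1c (interaction -0.68) and Ifit2 (-0.59). The Oas1 genes are close paralogues, and binding of one gene's RNA to another's probe was not tested.

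The higher members were Gbp2, Tap1 and Psmb9. Gbp2, a guanylate-binding GTPase, was at -6.35 and -5.47 compared with -4.13 and -4.02 on the day 2 arrays, then at -3.70 and -4.28 compared with -0.04 and -0.27 on the day 4 arrays. The difference moved from 1.83 to 3.83, and its call was lost when some single arrays were left out. Tap1, the peptide transporter of antigen presentation, went from 0.44 to 1.92, and Psmb9, an immunoproteasome subunit, from 0.37 to 0.94. Isg15 and Ifit1, which both carry the first promoter pattern, had interactions of -0.14 and -0.40 that did not pass (adjusted p = 0.891 and 0.796).

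Signalling lists had calls in both directions, beside 8.17% higher and 7.15% lower of all genes tested. In the nodal and activin list 4 of 14 measured members were lower (28.6%) and 2 higher (14.3%). The nodal antagonists Lefty1 and Lefty2 were lower, and Lefty1 was at 2.85 and 3.46 (day 2) and 5.03 and 4.58 (day 4) with the non-targeting hairpin, and at 3.65 and 4.12 (day 2) and 3.11 and 1.89 (day 4) with the Ino80 hairpin. Its difference went from 0.73 to -2.31, with a change of 1.65 in shNT and -1.39 in shIno80. Lefty2 went from 0.14 to -2.87. The inhibin beta chain Inhbb deepened from -1.67 to -4.49 by its reported probe, while its other probe gave -1.21 and -1.13, an interaction of 0.08 that did not pass. Inhba, another beta chain, was well above background in shIno80 at day 4 only, where it was at least 3.96-fold higher than in shNT. The activin antagonist Fst went from -0.08 to 1.40, and the nodal co-receptor Tdgf1 from -0.66 to -1.43.

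In the LIF and STAT3 list, the cytokine pathway that supports self-renewal, 4 of 11 were lower (36.4%) and 2 higher (18.2%). The receptor chains Lifr and Il6st had differences of 0.53 and 0.51 at day 2 and of -0.22 and -0.48 at day 4 by their reported probes. The other kept probes of Lifr, well above background on 8 of 8 arrays, gave 0.22, 0.03, 0.16 and -1.30 at day 2. At day 4 they gave -0.93, -1.02, -1.12 and -2.78. Their interactions were -1.14, -1.05, -1.28 and -1.48, of which -1.05 did not pass. The feedback inhibitors Socs2 and Socs3 went from -0.52 to -1.79 and from -0.67 to -1.27. The kinases went the other way, Jak1 from 0.36 to 1.26 and Jak2 from 0.42 to 2.10, and the other probe of Jak2 gave an interaction of 0.44 that did not pass. In the FGF and ERK list 4 of 14 were lower (28.6%) and 1 higher (7.14%, beside 8.17% of all genes tested). Ccnd1, a G1 cyclin and ERK target, went from 0.30 to -1.12, Egr1, an immediate early transcription factor, from -0.52 to -1.53, and Dusp6, a phosphatase of ERK, from -0.28 to 1.10. Spred2, an ERK inhibitor, and the receptor Fgfr2 had interactions of -0.80 and -0.92. With median scaling the calls of Jak1, Dusp6 and Fgfr2 were lost, and with the 8 arrays alone those of Il6st, Jak1, Dusp6 and Fgfr2. The calls of Il6st, Jak1, Egr1, Dusp6 and Fgfr2 were lost when most single arrays were left out, and that of Socs2 when some were. The lower counts of both lists then fell to 1 or 2 of their members without shNT day 2 replicate 2 or any 1 of the 4 arrays of day 4, and that of the FGF and ERK list also without shNT day 2 replicate 1 or shIno80 day 2 replicate 2.

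In the Wnt list 4 of 17 were higher (23.5%, beside 8.17% of all genes tested) and 3 lower (17.6%, beside 7.15%). The higher members were the ligands Wnt10a (from 0.04 to 2.60), Wnt3 (-0.26 to 1.91), Wnt6 (-0.23 to 1.36) and Wnt7b (0.17 to 1.62). The lower ones were the antagonist Sfrp1 (-0.27 to -2.50), the ligand Wnt5a and the antagonist Dkk1. No shIno80 array of day 4 was well above background for Wnt5a or Dkk1, which were at least 2.81-fold and 4.39-fold lower than in shNT there, and the other probe of Dkk1 gave an interaction of -0.03 that did not pass. Immediate early genes had 4 of 14 higher (28.6%) and 2 lower (14.3%), Egr1 and Ier2. The lower count was 1 with median scaling, with quantile normalization and with the 8 arrays alone, and 0 without the filter on dim probes. It fell too when most single arrays were left out. Among the higher were Dusp1, a MAP kinase phosphatase, from -0.15 to 2.05 and the AP-1 subunit Fosl2 from -0.24 to 1.44. The call of Fosl2 was lost when some single arrays were left out, and the higher count of this list was 1 without shIno80 day 2 replicate 1, shNT day 4 replicate 1 or shIno80 day 4 replicate 2, 2 without shNT day 4 replicate 2, and 7 in the deposited value table.

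**Figure D3:**
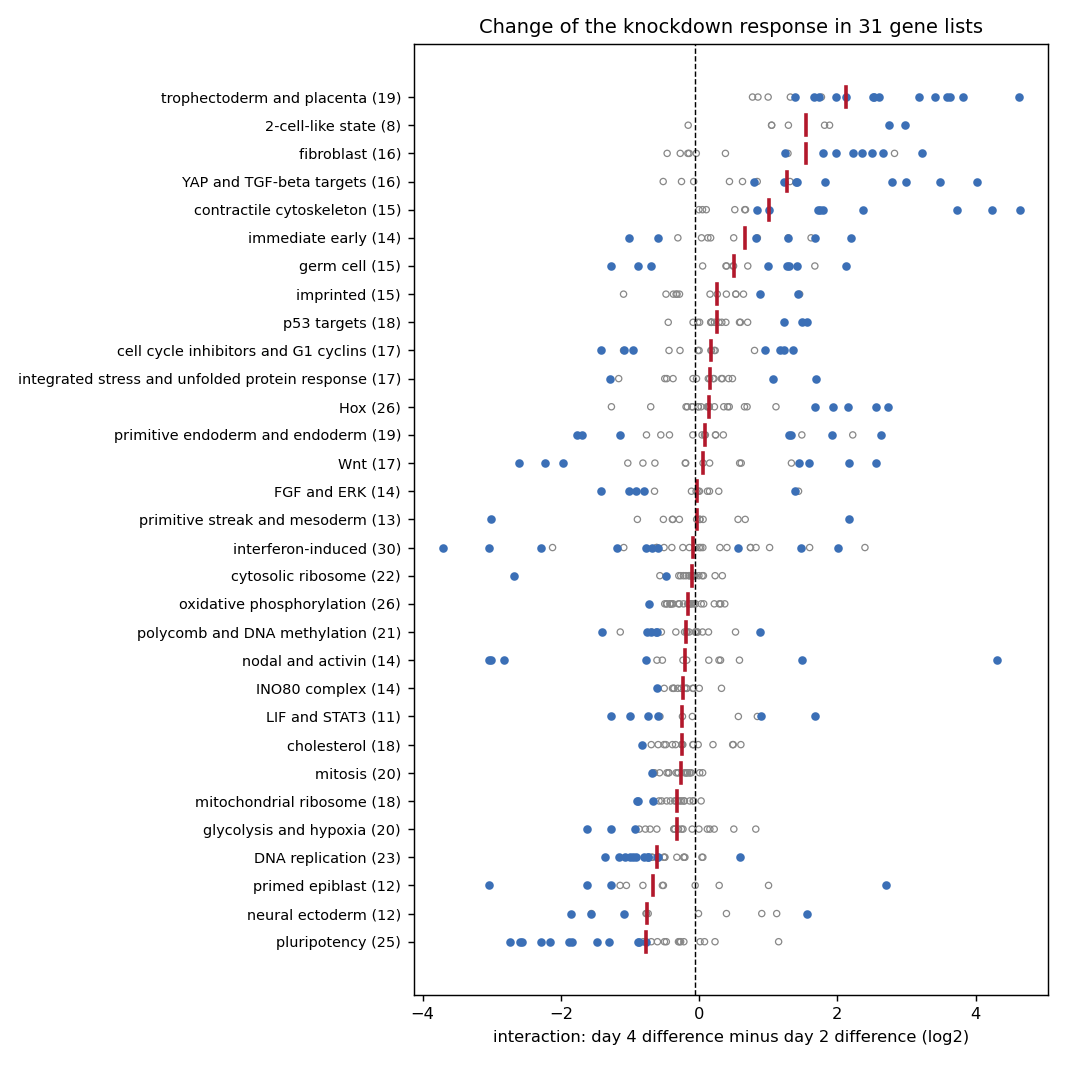
Interaction log2 of every measured member of 31 gene lists (number of members in brackets), with filled points for members that passed (limma adjusted p under 0.05), red bars at list medians and a dashed line at the median of all genes, -0.06. In the values used, the trophectoderm list has the highest median, 2.12, and the pluripotency list the lowest, -0.77.

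Genes of DNA replication had the most falls after the pluripotency list. Of 23 measured members 11 were lower and 1 higher, with a median interaction of -0.61. These were 47.8% and 4.35%, beside 7.15% and 8.17% of all genes tested. The lower count was 6 without shNT day 4 replicate 1 or shIno80 day 4 replicate 2, 7 without shIno80 day 2 replicate 1, shNT day 4 replicate 2 or shIno80 day 4 replicate 1, 7 with median scaling and 6 with the 8 arrays alone. Pola1, the catalytic subunit of the priming polymerase, was at 3.02 and 3.27 compared with 2.30 and 2.50 on the day 2 arrays, then at 2.71 and 2.87 compared with 0.86 and 0.49 on the day 4 arrays. Its difference went from -0.74 to -2.11, an interaction of -1.37 ± 0.23. Mcm10, an initiation factor, went from -0.37 to -1.53, Rrm2, a subunit of ribonucleotide reductase, from -0.08 to -1.15, and Mcm2, a subunit of the replicative helicase, from -0.20 to -1.20. The cyclins E went apart, Ccne1 from -0.33 to -1.28 and Ccne2 from 0.01 to 0.60.

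Mitotic genes moved less, with 1 of 20 lower (5%) and 0 higher, and a median of -0.26. The lower member was Ttk, a spindle checkpoint kinase, with an interaction of -0.68. The call of Ttk was lost when some single arrays were left out. Among G1 regulators 4 of 17 were higher (23.5%, beside 8.17% of all genes tested) and 3 lower (17.6%, beside 7.15%). The CDK inhibitors of 1 locus, Cdkn2a and Cdkn2b, deepened from 0.84 to 2.01 and from 0.85 to 1.81. Ccnd2, a G1 cyclin, was at 2.17 and 2.55 (day 2) and 1.02 and 1.33 (day 4) with the non-targeting hairpin, and at 0.07 and 0.40 (day 2) and 0.47 and 0.34 (day 4) with the Ino80 hairpin. Its response faded from -2.13 to -0.77, with most of the change in shNT (-1.18, against 0.18 in shIno80).

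Chromatin genes of the polycomb and DNA methylation list had 5 of 21 lower and 1 higher (median -0.19). These were 23.8% and 4.76%, beside 7.15% and 8.17% of all genes tested. The lower count was 1 with median scaling, with the 8 arrays alone and without shIno80 day 2 replicate 1, shNT day 4 replicate 1 or either shIno80 array of day 4, and 2 without shIno80 day 2 replicate 2 or shNT day 4 replicate 2. Tet1, which oxidises methylated cytosine, was at 1.34 and 1.04 compared with 1.21 and 1.09 on the day 2 arrays, then at 0.92 and 0.69 compared with -0.65 and -0.65 on the day 4 arrays. The arrays overlapped at day 2 and were apart at day 4, and the interaction was -1.41 ± 0.21. The 1 higher member, Tet3, passed by its reported probe (interaction 0.87), but its other probe gave -0.10 and its call was lost when some single arrays were left out. The polycomb genes Mtf2, Pcgf6 and Ezh2 had interactions of -0.76, -0.70 and -0.62, and Uhrf1, a cofactor of maintenance methylation, -0.61. Mtf2 and Pcgf6 lost their calls with median scaling and when some single arrays were left out.

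The interaction came mostly from the shIno80 arm, with exceptions. The median absolute change between days over the genes that passed was 1.07 in shIno80 and 0.34 in shNT, and the arms moved in opposite directions in 1467 of 2940. In 437 genes (14.9%) the shNT arm had the larger change, and in 172 the shIno80 arm stayed within 0.25. Of the genes that turned round, 17 of 74 (23%) had the larger change in shNT. Slide and day are joined in these within-arm values. The count of 437 ranged from 186 without shIno80 day 4 replicate 2 to 748 without shNT day 2 replicate 2.

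Gata6, a transcription factor of the primitive endoderm, was at -3.98 and -3.27 (day 2) and -2.13 and -1.85 (day 4) with the non-targeting hairpin, and at -4.70 and -4.24 (day 2) and -4.66 and -4.39 (day 4) with the Ino80 hairpin. The difference moved from -0.84 to -2.53, while the shIno80 level changed by -0.06 and the shNT level by 1.63. The interaction of -1.69 ± 0.43 (adjusted p = 0.0341) lost its call when some single arrays were left out, and the other probe gave -0.46, which did not pass. Cbr3, a carbonyl reductase, was at 3.38 and 4.52 in shNT at day 2 and 5.54 and 5.85 at day 4, while the 4 shIno80 arrays lay between 3.52 and 4.18. Its interaction was -1.91 ± 0.49, and its call too was lost when some single arrays were left out. Mmd2, a membrane receptor family member, changed by 1.91 in shNT and 0.09 in shIno80.

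Rhobtb1, an atypical GTPase, was at -1.76 and -2.11 compared with -2.44 and -2.51 on the day 2 arrays, then at -4.29 and -4.41 compared with -2.22 and -2.28 on the day 4 arrays. Only the shNT arrays of day 4 stood apart. Its interaction was 2.64 ± 0.27 (adjusted p = 0.000998), with a change of -2.41 in shNT and 0.22 in shIno80. Rapgef3, a cAMP-activated exchange factor, changed by -1.75 in shNT and 0.10 in shIno80. Arpin, an inhibitor of actin nucleation, changed by -1.68 and -0.10 and lost its call when some single arrays were left out. Rab11fip5, an effector of recycling endosomes, changed by -1.69 in shNT with 0.00 in shIno80, and its other probe gave an interaction of 0.24 that did not pass.

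**Figure D4:**
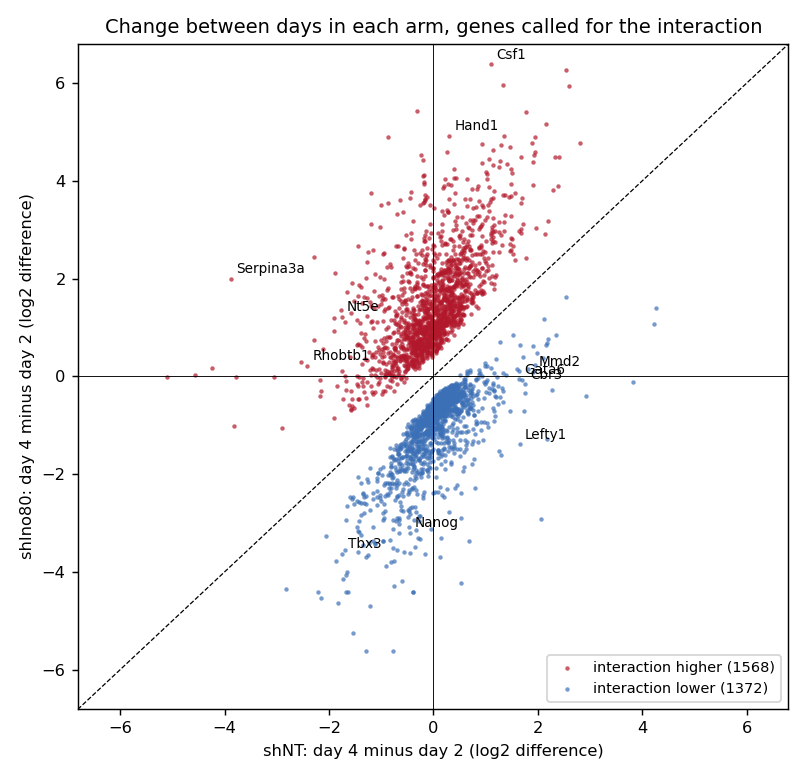
Change between day 2 and day 4 in shNT (x axis) and in shIno80 (y axis), log2, for the genes that passed the interaction, 1568 higher in red and 1372 lower in blue; the dashed line marks equal change. Most points spread along the vertical axis, as in Hand1 and Nanog, and a smaller number lie near the horizontal axis, as in Gata6 and Rhobtb1.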

How the data were processed

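RNA of J1 cells was labelled and hybridised to 12 one-channel arrays. The deposited scanner files hold spot intensity values made with Agilent Feature Extraction 9.5.3.1, background-subtracted and detrended within each array but not scaled between arrays, per the file headers. Cy5 is the dye in the labels, while the files hold green columns only. The deposited value table holds log2 of the mean spot intensity, which is not background-subtracted, and so differs from the processed signal used here. Each of its columns matched the mean spot intensity of 1 scanner file within a relative tolerance of 1e-06 after 1 factor per array. The choice of factor is unstated in the sources used here. Sample descriptions speak of transfection where the series design says infection. The design lists the 2 arrays of a group as biological replicates, and nothing says how the cultures were made. The p-values thus measure only the spread between these samples, which may be partly technical.

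The processed intensity was taken to log2 and centred on the 75th percentile of its array. Of 41174 probes, 125 were dropped for outlier marks, and 28654 cleared background on both arrays of 1 or more of the 6 groups and were kept. The kept probe with the highest mean stood for its gene. Probes were named through a RefSeq table of GRCm38.p6 by accession (22899), symbol (6627) or older symbol (3099), and for 8424 the file's own name was used; 15002 of the 19183 genes had a proper name. limma 3.58.1 in R 4.3.3 (lmFit, eBayes) was fitted with 1 mean for each of 6 groups on all 12 arrays, with 6 residual and 2.19 prior degrees of freedom and Benjamini-Hochberg adjustment over all genes at 0.05. The day 6 arrays gave only an estimate of spread. The code of the fit was run on simulated data with independent normal noise and the spread shuffled over genes. That run does not bear on the choice of background correction.

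Gene lists and members were chosen with earlier results of these data known. No set test was run; lists are described by counts and medians. Named genes are a fixed set (Ino80, Nanog, Pou5f1, Sox2, Klf4, Esrrb, Zfp42, Cdx2, Hand1, Gata6, Fgf5), and, by size of interaction, the 6 highest and 6 lowest among genes measured in all groups, the leading 4 of each direction that deepened or faded, 5 of each direction that turned round (by the smaller of the 2 differences), 5 of each direction with a group not above background, 4 of each direction with shIno80 within 0.25 between days, and up to 4 called members per list. Some genes that the rule names are not reported here. Other list members named with values (such as Krt7, Krt19, Eomes, Gata2, Gata3, Tead4, Tbx3, Nr5a2, Tfcp2l1, Ccn1, Loxl1, E2f1, Isg15 and Ifit1) were chosen after their values were seen. Of 225 named or listed genes with over 1 kept probe, all probes had 1 sign in 185. Alternatives changed the scaling (median, quantile), the background (normexp with an offset of 50), the values (the value table), the filter, the probe summary, the arrays in the fit, the samples as attached, a replicate block and each array in turn. The number of arrays limits the precision.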

Additional observations from a re-analysis of the deposited data

Results flagged for a closer look

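The knockdown response differed between days 2 and 4, by the interaction test itself, for 2940 genes. For the 10 named genes that turned round, the interaction was 4.00 for Ctla2a, 4.10 for Mall, 2.70 for Fgf5, 2.54 for Dync1i1 and 2.98 for Nt5e, all lower in shIno80 at day 2 and higher at day 4. It was -2.38 for Tarm1, -1.67 for Crispld1, -2.55 for Ucma, -1.79 for Myb and -1.38 for Il12rb1. All of these were higher in shIno80 at day 2 and, by their fitted values, lower at day 4. Tarm1 was not well above background in either group at day 4, so its direction on that day is not established. Ctla2a, Mall and Tarm1 were not well above background in at least 1 group, so their fitted values are no bounds. Groups of 2 arrays are too small for a test of single samples that lie far from the rest.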

How the results depend on the processing

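Of the 137 named genes that passed, 124 kept their sign in every alternative but the attachment of the scanner files. Those that kept their call as well were 5: Synpo2l, Lrrc34, Krt18, Krt8 and Cryab. With 2 arrays per group, calls near the threshold move with single arrays. Values of dim genes are limited by their low signal over background. The 5th percentile of the arrays of days 2 and 4 was -4.46 to -1.0 with it and -8.30 to -7.81 in the values used. Under normexp the median of all genes moved from -0.06 to 0.30, 23 genes passed (1847 at an unadjusted p under 0.05), all of them with a response that appears, and counts were 0 for deepens, turns round, fades and the larger change in shNT. Among the lists, its medians were 1.97 for trophectoderm, -0.98 for pluripotency and -0.84 for DNA replication.

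Median scaling gave 2337 genes, with 371 that deepen and 44 that turn round. Quantile normalization gave 3400, with 115 that turn round, and 3123 passed in the deposited value table. Without the filter, 1855 genes passed, with 256 that deepen, 27 that turn round, 78 that fade and 264 with the larger change in shNT. With the 8 arrays of days 2 and 4 alone, 1942 passed, with 283, 31, 69 and 255 in the same order. The share of higher calls was 53.3%, and 60.1% in the value table, 60.7% with 8 arrays and 78.3% with normexp. It moved the other way, to 50.1% (1498 higher and 1492 lower), when only probes well above background on all 8 arrays were used. Averaging the probes within each gene gave 51.9%, and the replicate block gave 53.1%. With the samples as the scanner files are attached, 1 gene passed (199 at an unadjusted p under 0.05), with 0 that appear, 0 that deepen, 0 that turn round, 1 that fades and 1 with the larger change in shNT. The cause of these changes was not tested.

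Leaving out 1 array at a time gave 1474 to 2795 genes, with 1093 to 2156 that appear, 183 to 329 that deepen, 26 to 99 that turn round, 69 to 156 that fade, 186 to 748 with the larger change in shNT, and 14 to 16 lists with a median above that of all genes. The lone array of a group was then assumed to vary like the other groups. The replicate numbers did not meet the rule for pairing, which asks that every pair of groups exceed 0.1: deviations of arrays with the same number correlated at 0.0878 to 0.2959 over 6 pairs of groups, with 0.2959 at day 2 and 0.1173 at day 4. With the number as a block 2897 genes passed, and 136 of the 137 named genes kept their call.

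Signs were opposite with normexp, none of them past the threshold there, for Tarm1 0.65, Crispld1 0.41, Fbxo43 0.50, Sla2 0.12, Reg3d 0.038, Hhip 0.21, Pdgfra 0.71, Hes5 0.68, Nanos3 0.67, Fgfr2 0.38, Wnt5a 0.57, Tgtp1 0.45 and Oas1d 0.12. They were opposite with the samples as attached, where each shNT and shIno80 group mixes both hairpins by the value table, for Nanog 0.15, Klf4 0.10, Cdx2 -1.22, Hand1 -0.047, Fgf5 -0.39, Synpo2l -0.21, Jaml -0.16, Klk1 0.51, Nt5e -0.15, Tgfbr2 -0.17, Krt18 -0.16, Thbs1 -0.16, Bbx -0.21, Rimbp2 -0.31, Fbxo43 0.090, Il24 -0.61, Hhip 0.11, Oas1a 0.19, Tcl1 0.45, Krt8 -0.043, Pdgfra 0.31, Wnt3 -0.13, Dnmt3a 0.024, Rhox6 -0.81, Ddx4 -0.33, Tdrd1 -0.39, S100a4 -0.060, Dcn -0.27, Tagln -0.10, Il6st 0.31, Jak1 -0.032, Ccnd1 0.079, Dusp6 -0.48, Wnt10a -0.023, Sfrp1 0.73, Oas1d 0.38, Gbp2 -0.90, Perp -0.49, Pmaip1 -0.082, Dusp1 -0.15, Klf6 -0.29, Ccnd2 -0.27, Cdkn2a -0.18, Sdha 0.067, Rpl39l 0.050, Mrps27 0.077, Pfkp 0.30, Nsdhl 0.033, Tet1 0.093 and Peg10 -0.0042.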

Other observations

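Genes of other lineages and of the early embryo passed in both directions, beside 8.17% higher and 7.15% lower of all genes tested. Of 26 measured Hox genes 5 (19.2%) were higher and 0 lower, and 2 were higher in the deposited value table. Only 15 of the 26 were well above background on both arrays in all groups, and 1 of these was higher. Of 15 germ cell genes 5 (33.3%) were higher, led by Rhox6 (interaction 2.12) and Ddx4 (1.41), and 3 (20%) lower, among them Nanos3 (-1.27). These 3 genes lost their calls when some single arrays were left out. The higher count of the germ cell list was 2 with the 8 arrays alone and without shIno80 day 2 replicate 1 or any 1 of the 4 arrays of day 4, and 3 without shNT day 2 replicate 2. The lower count was 0 without shNT day 4 replicate 1 or either shIno80 array of day 4. The list of the state that resembles the embryo at the 2-cell stage had 8 measured members, 2 of which share a probe. Of the 8, 2 (25%) were higher, or 2 of 7 distinct genes. The higher count was 1 with the 8 arrays alone, 1 without the filter on dim probes and 4 in the deposited value table. With only probes well above background on all 8 arrays it was 1 of 5. One of the 2, Usp17lc, lost its call when some single arrays were left out. Zfp352 was at -4.21 and -5.33 (day 2) and -3.42 and -3.14 (day 4) with the non-targeting hairpin, and at -4.37 and -4.57 (day 2) and -0.21 and -0.26 (day 4) with the Ino80 hairpin. The 8 members of this list, with the shared probe counted for both, had a median change between days of 3.31 in shIno80 and 2.08 in shNT. Of 19 endoderm genes 4 (21.1%) were higher, such as Col4a2 (from -0.15 to 2.48), and 3 (15.8%) lower, such as Pdgfra (from 0.28 to -1.50). The higher count was 2 without shNT day 4 replicate 2, and the lower count 1 without shIno80 day 2 replicate 2, shNT day 4 replicate 1 or either shIno80 array of day 4. Of 12 neural genes Nes was higher (1.16 to 2.72) and Pax6, Hes5 and Neurod1 (25%) were lower, and of 12 primed epiblast genes Fgf5 was higher while Lefty1, Dnmt3a and Foxd3 (25%) were lower. The neural lower count was 1 without shIno80 day 2 replicate 2, shNT day 4 replicate 1 or shIno80 day 4 replicate 2. Col4a2, Pax6 and Hes5 lost their calls when some single arrays were left out. Of the other probes of Dnmt3a 1 gave -1.44 and 1 gave 0.30, which did not pass. Of 15 imprinted genes 2 were higher, Igf2r and Peg10, of which Peg10 lost its call when some single arrays were left out.

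In the lists of basic metabolism and of protein synthesis no member passed higher, beside 8.17% higher and 7.15% lower of all genes tested. The lower counts were 1 of 26 (3.85%) for oxidative phosphorylation (Sdha), 3 of 20 (15%) for glycolysis and hypoxia (Pfkp, Bnip3 and Pdk1), 1 of 18 (5.56%) for cholesterol (Nsdhl), and 3 of 18 (16.7%) for mitochondrial ribosomal proteins (Mrps27, Mrps12 and Mrps2). The mitochondrial count was 1 without shNT day 4 replicate 1 or shIno80 day 4 replicate 2, and the glycolysis count was 1 without either of these or shIno80 day 2 replicate 2. Sdha, Bnip3, Pdk1, Nsdhl, Mrps27, Mrps2 and Rpl3 lost their calls when some single arrays were left out. Of 22 cytosolic ribosomal proteins 2 (9.09%) were lower. One of these was Rpl39l, a testis-enriched paralogue of a ribosomal protein gene, at 4.21 and 4.13 against 3.34 and 3.28 at day 2 and at 4.60 and 4.66 against 1.14 and 1.05 at day 4. Its response deepened from -0.86 to -3.53, an interaction of -2.68 ± 0.21, while the other called member, Rpl3, had -0.49. The median of the list was -0.11. Among stress genes 2 of 17 were higher (11.8%), Atf3 (0.70 to 2.39) and Asns. The 1 lower member (5.88%) was Xbp1 (-0.11 to -1.41). The call of Atf3 was lost without shIno80 day 4 replicate 2.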
